A study of Mus musculus with 6 samples.

Results

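The 9 genes described here encode transcription factors that shape or mark the habenula and the thalamus: Pou4f1, Irx2, Irx5, Nhlh2, Tcf7l2, Lef1, Zic1, Zic4, and Rora. They were chosen by symbol from the 14477 genes listed for hippocampal tissue, and they were selected on earlier results of the same mice, in which their CPM had been compared between the genotypes, so the genotype difference of each member is given as a description, with no p-value. The study asked how depletion of PHF21B, a plant homeodomain finger protein that reads chromatin, alters gene expression in the hippocampus. RNA-Seq was performed at baseline, without treatment, on hippocampi of 3 Phf21bΔ4/Δ4 mice, numbered 2, 3, and 6, and of 3 Phf21b+/+ mice, numbered 5, 7, and 8. The Phf21bΔ4 allele is a CRISPR/Cas9 deletion within exon 4, which both copies carry in every cell of the body, and Phf21b+/+ mice carry the intact gene on the same C57BL/6J background. The animals of the study were young adults of both sexes, and the sex of these 6 mice, a dissection record, and a library batch are not given in the sources used here. Each library came from 1 mouse, and values are counts scaled to library size (CPM) unless stated otherwise.

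The targeted gene was lower in every Phf21bΔ4/Δ4 mouse, but its transcript was still detected. Phf21b was at 2.15, 3.57, and 3.87 CPM in Phf21bΔ4/Δ4 mice 2, 3, and 6, and at 6.501, 5.23, and 6.47 CPM in Phf21b+/+ mice 5, 7, and 8. The groups did not overlap, and the log2 fold change was -0.96 (SE 0.26) with an FDR of 0.141 in limma's test over all listed genes. The libraries held 20495605 to 24881257 reads of listed genes, so that 3 reads, the floor used below, were worth 0.127 to 0.143 CPM. Genes of choroid plexus epithelium, the tissue that secretes cerebrospinal fluid, set 2 libraries apart, with a summed level of 15763 CPM in Phf21b+/+ mouse 7 and 978 CPM in Phf21b+/+ mouse 8 against 26.0 CPM in Phf21b+/+ mouse 5 and 23.8 to 82.9 CPM in the Phf21bΔ4/Δ4 mice.

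The habenula and the thalamus lie next to each other in the diencephalon, directly below the dorsal hippocampus. Pou4f1 (also called Brn3a) is a POU-domain factor that maintains the identity of medial habenula neurons, Irx2 and Irx5 are Iroquois homeobox factors, and Nhlh2 is a basic helix-loop-helix factor of differentiating neurons. Tcf7l2 and Lef1 are high-mobility-group factors that bind β-catenin and carry out the transcriptional response to Wnt signals, and Tcf7l2 is also a lasting marker of thalamic and habenular neurons. Zic1 and Zic4 are zinc finger factors of the dorsal midline, septum, and thalamus that are also expressed in meninges, and Rora is a nuclear receptor that is abundant in thalamus and cerebellum and present in many other neurons.

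Promoter sequences are shown for 4 members so that the regions from which the transcripts near 0 arise can be read beside their levels. Pou4f1 and Irx2 had the lowest levels in Phf21bΔ4/Δ4 mice, Tcf7l2 is the Wnt effector with groups that do not overlap, and Zic1 had the highest level of the set in Phf21b+/+ mice. The bases end directly before the transcription start in RefSeq on GRCm38.p6 and are written 5′ to 3′ on the strand of the gene, without bases that lie in annotated exons, which shortened Zic1 to 208 bases. Capitals mark TGACG or its other-strand form CGTCA, the core that CREB-family factors bind, and CAGCTG, an E-box of the kind bound by basic helix-loop-helix factors.

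The stretches are as follows.
Pou4f1, chr14:104468000-104468249, minus strand: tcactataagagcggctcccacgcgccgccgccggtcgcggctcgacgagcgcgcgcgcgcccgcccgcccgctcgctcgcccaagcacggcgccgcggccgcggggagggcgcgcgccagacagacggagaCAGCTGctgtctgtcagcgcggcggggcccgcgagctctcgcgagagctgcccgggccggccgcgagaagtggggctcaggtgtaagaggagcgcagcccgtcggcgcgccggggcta
Irx2, chr13:72628570-72628819, plus strand: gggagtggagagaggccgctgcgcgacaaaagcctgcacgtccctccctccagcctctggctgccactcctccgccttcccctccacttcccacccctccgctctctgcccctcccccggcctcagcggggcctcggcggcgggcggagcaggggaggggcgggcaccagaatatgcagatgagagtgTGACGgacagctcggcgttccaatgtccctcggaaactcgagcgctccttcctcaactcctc
Tcf7l2, chr19:55741560-55741809, plus strand: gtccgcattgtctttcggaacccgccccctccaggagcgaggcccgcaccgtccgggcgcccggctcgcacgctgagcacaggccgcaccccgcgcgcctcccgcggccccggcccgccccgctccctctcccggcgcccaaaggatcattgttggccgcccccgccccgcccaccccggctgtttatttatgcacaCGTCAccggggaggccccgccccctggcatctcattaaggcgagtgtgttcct
Zic1, chr9:91365811-91366018, minus strand: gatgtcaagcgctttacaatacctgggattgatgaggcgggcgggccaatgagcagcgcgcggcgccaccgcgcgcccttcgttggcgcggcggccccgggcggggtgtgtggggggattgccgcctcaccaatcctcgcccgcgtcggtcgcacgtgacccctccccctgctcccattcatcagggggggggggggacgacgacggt

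RefSeq promoters were found for 8 of the 9 members, all but Irx5. TGACG, searched on both strands over all 250 bases before each start, printed or not, was in promoters of 2 of these 8 genes (Irx2 and Tcf7l2) and in 17.8% of all 32851 promoters. CAGCTG, which reads the same on both strands, was in promoters of 2 of them (Pou4f1 and Lef1) and in 13.0% of all promoters. CTTTGAT, a core bound by TCF and LEF factors, was in 0 of the 8 and in 3.21% of all, and AGGTCA, a core bound by nuclear receptors such as RORA, was in 0 of the 8 and in 14.02% of all. Each promoter with a match held 1 of these motifs, so none overlapped another. A match is a run of letters and not a shown binding site. The first starts of Pou4f1 and Tcf7l2 lay in bases that were 78% and 72.8% G or C, that of Irx2 in 68.4%, and that of Nhlh2 in 42%, against a median of 52.4% over all promoters.

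All 9 members had a lower mean in Phf21bΔ4/Δ4 hippocampi, and the size of the difference ranged from near complete absence of reads to a difference smaller than the spread between mice. In 7 of the 9 every Phf21bΔ4/Δ4 mouse lay below every Phf21b+/+ mouse, an order that 16.0% of all listed genes showed. With thresholds of 0.1 for the FDR and 1.3 for the fold change, 6 of the 9 were past both thresholds and lower (all but Irx5, Lef1, and Rora), where 0.663% of all listed genes were. Because the members were chosen on this contrast, nothing is read from these 2 shares. The calls depend on the test. The authors' list, from edgeR at the same thresholds, holds Irx5 but neither Zic1 nor Zic4, and voom on reads also called Irx5. The median log2 fold change of the members was -4.49, beside -0.02 over all listed genes. It is the value of Zic1, so it does not depend on the poorly determined size for Pou4f1 and Irx2. All 9 passed the authors' filter on low values, which for Irx5, Irx2, Pou4f1, and Zic4 rested on the Phf21b+/+ mice. In bulk tissue, fewer cells of a type and less RNA per cell cannot be told apart. Without Phf21b+/+ mouse 5, 7, or 8, the number of members past both thresholds was 2, 1, and 1, respectively.

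**Figure D1:**
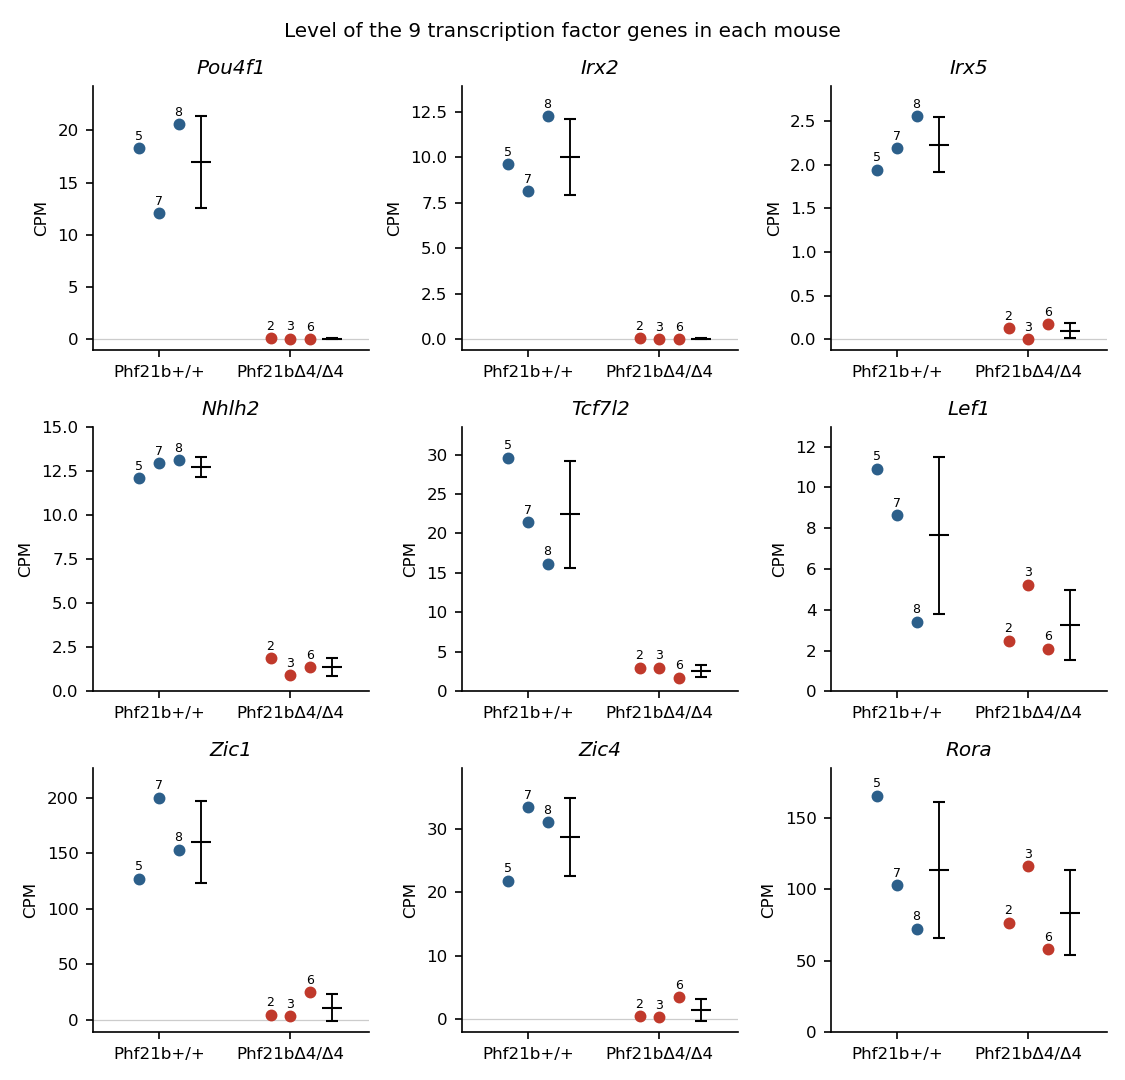
CPM (linear axis) of each of the 9 genes in each mouse, with Phf21b+/+ mice in blue, Phf21bΔ4/Δ4 mice in red, the replicate number above each point, and the group mean with its SD (n = 3) as a black bar. The points of the 2 genotypes are apart in 7 panels and overlap for Lef1 and Rora.

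Of the homeodomain factors, Pou4f1 and Irx2 were almost absent from Phf21bΔ4/Δ4 hippocampi. Pou4f1 (chr14:104461676-104467999, minus strand) was represented by 2, 1, and 0 reads in Phf21bΔ4/Δ4 mice 2, 3, and 6, and by 385, 286, and 458 reads in Phf21b+/+ mice 5, 7, and 8, which were 18.3, 12.1, and 20.6 CPM. The Phf21b+/+ mean was 17.0 ± 4.403 CPM (SD, n = 3), with each Phf21bΔ4/Δ4 mouse under the floor. Summed over the mice, the ratio of Phf21b+/+ to Phf21bΔ4/Δ4 was 380.1-fold, with an exact 95% interval of 129.7 to 1846 that covers counting error alone.

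Irx2 (chr13:72628820-72634198, plus strand) had 1, 0, and 0 reads in Phf21bΔ4/Δ4 mice 2, 3, and 6. The Phf21b+/+ mice had 203, 193, and 273 reads, or 9.63, 8.14, and 12.3 CPM, with a mean of 10.02 ± 2.09 CPM (SD, n = 3). Its summed ratio was 676-fold, with a counting interval of 121 to 26731, so the single read in Phf21bΔ4/Δ4 mice leaves the size of the ratio poorly determined. Irx5 (chr8:92357625-92376286, plus strand) was a low-level gene in both genotypes, with 3, 0, and 4 reads in Phf21bΔ4/Δ4 mice and 41, 52, and 57 reads in Phf21b+/+ mice. The Phf21b+/+ values of 1.95, 2.19, and 2.56 CPM all lay above the highest Phf21bΔ4/Δ4 value of 0.174 CPM, and the summed ratio was 21.6-fold (counting interval 10.3 to 54.8).

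Pou4f1 and Irx2 followed the same order among Phf21b+/+ mice, highest in mouse 8 and lowest in mouse 7, and their ratio stayed between 1.48 and 1.90 there. Irx5 was also highest in mouse 8 but lowest in mouse 5. Phf21b+/+ mouse 5, in which choroid plexus genes were as low as in the Phf21bΔ4/Δ4 mice, had 18.3 CPM of Pou4f1 and 9.63 CPM of Irx2. The levels of these genes in mouse 5 were measured with the choroid plexus sum inside the range of the other genotype. The part of choroid plexus tissue in their levels was not tested.

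Nhlh2 was the member with the least spread among Phf21b+/+ mice. Nhlh2 (chr3:102010076-102015492, plus strand) was at 12.1, 13.0, and 13.1 CPM in Phf21b+/+ mice 5, 7, and 8, a coefficient of variation of 4.31%. Phf21bΔ4/Δ4 mice 2, 3, and 6 had 1.90, 0.905, and 1.39 CPM. The lowest Phf21b+/+ value stood far above the highest Phf21bΔ4/Δ4 value, the ratio of the means was 9.10-fold, and the log2 fold change was -3.25 (SE 0.28). Unlike Pou4f1 and Irx2, Nhlh2 kept reads in every Phf21bΔ4/Δ4 library, between 19 and 45.

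The 2 Wnt effectors differed from each other in how far the genotypes were apart. Tcf7l2 (chr19:55741820-55933654, plus strand) was at 29.6, 21.4, and 16.2 CPM in Phf21b+/+ mice 5, 7, and 8, and at 2.99, 3.001, and 1.74 CPM in Phf21bΔ4/Δ4 mice 2, 3, and 6. These groups did not overlap, with an 8.69-fold ratio of the means and a log2 fold change of -3.12 (SE 0.30). Lef1 (chr3:131110471-131224356, plus strand) was at 10.9, 8.65, and 3.42 CPM in the Phf21b+/+ mice and at 2.49, 5.24, and 2.09 CPM in the Phf21bΔ4/Δ4 mice. Its groups overlapped, because Phf21b+/+ mouse 8 lay below Phf21bΔ4/Δ4 mouse 3, and its ratio of means was 2.34-fold with a log2 fold change of -1.19 (SE 0.52). The ratio of Tcf7l2 to Lef1 CPM was 2.48 to 4.74 in Phf21b+/+ mice and 0.573 to 1.20 in Phf21bΔ4/Δ4 mice, and the ranges were apart. The antisense gene Gm43352 shares 13.7% of the exon bases of Lef1, and whether the counting used strand is not given in the sources used here, so reads of the 2 cannot be told apart.

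Zic1 and Zic4 were spread widely among Phf21bΔ4/Δ4 mice, 8.43-fold and 9.02-fold from the lowest to the highest. Zic1 (chr9:91358058-91365810, minus strand) was at 127, 200.1, and 153 CPM in Phf21b+/+ mice 5, 7, and 8, and at 4.68, 2.95, and 24.9 CPM in Phf21bΔ4/Δ4 mice 2, 3, and 6. Zic4 (chr9:91362413-91389348, plus strand) was at 21.8, 33.4, and 31.1 CPM in the Phf21b+/+ mice and at 0.464, 0.381, and 3.44 CPM in the Phf21bΔ4/Δ4 mice. Both genes were highest in mouse 6 among the Phf21bΔ4/Δ4 mice and in mouse 7 among the Phf21b+/+ mice, and neither had overlapping groups. The ratios of the means were 14.8-fold for Zic1 and 20.2-fold for Zic4, with log2 fold changes of -4.49 (SE 0.74) and -5.05 (SE 0.80).

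The 2 Zic genes are neighbors on opposite strands, with starts 3.397 kb apart and 60 exon bases in common, which are 1.05% of Zic1 and 0.581% of Zic4. Zic1 exceeded Zic4 in every mouse, with a CPM ratio of 4.93 to 5.99 in Phf21b+/+ mice and 7.24 to 10.1 in Phf21bΔ4/Δ4 mice. Meningeal fibroblasts also express Zic genes, and 7 of their 8 markers had a negative log2 fold change (median -0.62 over the 8). The 8 markers summed to 183, 119, and 16.8 CPM in Phf21bΔ4/Δ4 mice 2, 3, and 6 and to 50.9, 51.3, and 43.1 CPM in Phf21b+/+ mice 5, 7, and 8. The marker with the highest level, Dcn, made up most of this sum in Phf21bΔ4/Δ4 mice 2 and 3 (152 and 101 CPM). The 7 other markers, summed without it after its values were seen, were at 30.6, 18.6, and 13.8 CPM in the Phf21bΔ4/Δ4 mice and at 38.1, 40.3, and 32.7 CPM in the Phf21b+/+ mice. This sum was lower in every Phf21bΔ4/Δ4 mouse, as Zic1 and Zic4 were, and within that genotype it was lowest in mouse 6, where the Zic genes were highest. The part of meningeal cells in the Zic levels was not tested. Choroid plexus genes were highest in Phf21b+/+ mouse 7, as were Zic1 and Zic4, and their part in the level of that mouse was not tested, while in Phf21b+/+ mouse 5, with 26.0 CPM of choroid plexus genes, Zic1 was at 127 CPM.

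Rora was the member with the smallest difference. Rora (chr9:68653786-69388246, plus strand) was at 166, 103, and 72.5 CPM in Phf21b+/+ mice 5, 7, and 8, and at 76.8, 116, and 58.2 CPM in Phf21bΔ4/Δ4 mice 2, 3, and 6. The groups overlapped, and the log2 fold change of -0.42 (SE 0.35) was within the spread between mice, with means of 114 ± 47.5 and 83.8 ± 29.7 CPM (SD, n = 3). Tcf7l2, Lef1, and Rora shared an order of mice, from mouse 5 down to mouse 8 in Phf21b+/+ hippocampi and from mouse 3 down to mouse 6 in Phf21bΔ4/Δ4 hippocampi, although Phf21bΔ4/Δ4 mice 2 and 3 differed little in Tcf7l2. The ratio of Rora to Tcf7l2 CPM was 4.48 to 5.59 in Phf21b+/+ mice and 25.7 to 38.8 in Phf21bΔ4/Δ4 mice, with no overlap. This order was also that of the summed thalamic neuron genes in Phf21b+/+ mice, which were 642, 569.6, and 326 CPM in mice 5, 7, and 8, while in Phf21bΔ4/Δ4 mice that sum was highest in mouse 3 and lowest in mouse 2.

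**Figure D2:**
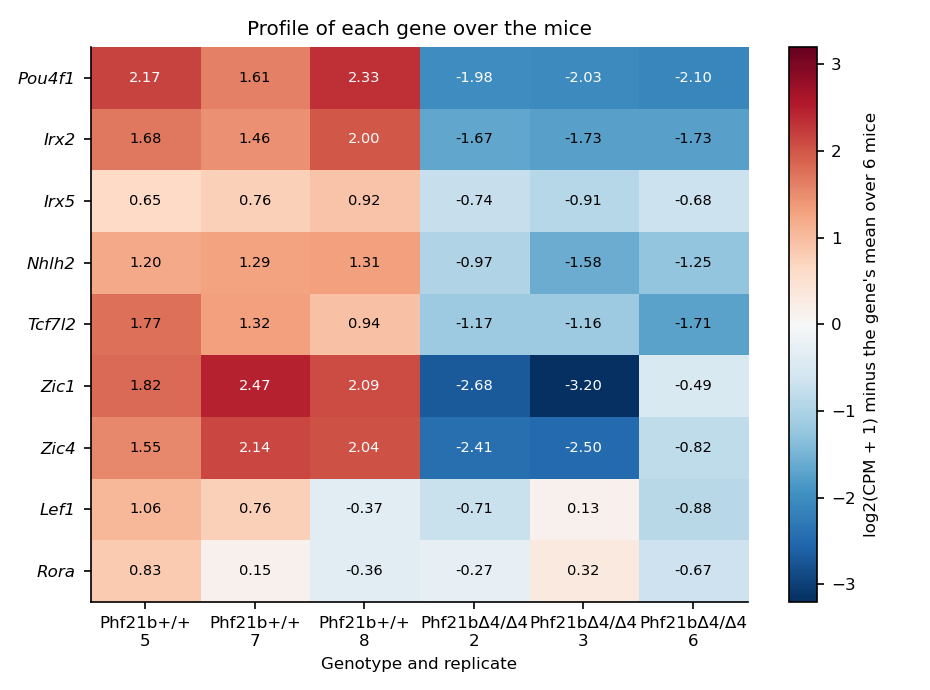
Deviation of log2(CPM + 1) from the mean of each gene over the 6 mice, with genes in rows, mice in columns, and the value printed in each cell (red above and blue below the mean). Pou4f1, Irx2, Nhlh2, Tcf7l2, and Irx5 are above the mean in each Phf21b+/+ mouse and below it in each Phf21bΔ4/Δ4 mouse, Zic1 and Zic4 are less low in Phf21bΔ4/Δ4 mouse 6 (-0.49 and -0.82), and Lef1 and Rora cross the mean within both genotypes.

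Levels were compared between members per length, as CPM per kb of annotated exon. In Phf21b+/+ hippocampi Zic1 was the most abundant at 28.2 ± 6.48 CPM per kb (SD, n = 3), followed by Rora at 8.70 ± 3.63, and each of these 2 stood apart from the next gene. Pou4f1, Irx2, Zic4, Tcf7l2, and Nhlh2 came next, at means of 3.63, 3.05, 2.79, 2.55, and 2.35 CPM per kb, and each overlapped its neighbor in this order. Nhlh2 was separate from Lef1 at 0.872 CPM per kb, which overlapped Irx5 at 0.714 CPM per kb. In Phf21bΔ4/Δ4 hippocampi Rora led at 6.41 ± 2.27 CPM per kb, apart from Zic1 at 1.90 ± 2.14. All later neighbors overlapped there, from Lef1 (0.372), Tcf7l2 (0.294), Nhlh2 (0.258), and Zic4 (0.138) down to Irx5, Pou4f1, and Irx2, whose mean levels were 0.0320, 0.00942, and 0.00428 CPM per kb. Lef1, next to last in Phf21b+/+ mice, was the third in Phf21bΔ4/Δ4 mice.

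Members that tracked each other most closely over the 6 mice were found by the root mean square difference of their centered log2(CPM + 1) values. Among the members, the smallest differences were between Pou4f1 and Irx2 (0.34), Lef1 and Rora (0.34), Zic1 and Zic4 (0.38), and Nhlh2 and Tcf7l2 (0.38), and the largest was between Zic1 and Rora (2.26). Over all listed genes, the 3 nearest to Pou4f1 were Chrna3 (0.25), a nicotinic acetylcholine receptor subunit, Gpr151 (0.31), an orphan receptor of habenular neurons, and Gm5741 (0.36). Nearest to Irx2 were the choline transporter Slc5a7 (0.24), the neuropeptide precursor Tac2 (0.26), and the nicotinic subunit Chrnb4 (0.31). These genes are described by their likeness alone, since 6 mice in 2 genotypes give every gene with a large difference a similar profile.

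For Nhlh2 the nearest genes were Gng8 (0.24), a G protein subunit, Tyrp1 (0.25), and the chloride channel Ano1 (0.26), and for Tcf7l2 they were Tac2 (0.37), Syt6 (0.40), and Tafa4 (0.41). Irx5, with its low level, was nearest to Cldn19 (0.13), Cytip (0.14), and D130009I18Rik (0.20). Zic1 and Zic4 had no close counterpart, and Cpne9, a copine, was the nearest gene to both (0.75 and 0.56), followed by Gpr151 and Chrna3 for Zic1 and by Chrna3 and Gpr151 for Zic4. Cpne9 was also higher in Phf21bΔ4/Δ4 mouse 6 (18.0 CPM) than in mice 2 and 3 (2.87 and 2.91 CPM). Lef1 was nearest to the thalamic genes Rgs16 (0.17) and Plcb4 (0.30) and to Adamts19 (0.28), whereas Rora was nearest to A330074K22Rik (0.13), Rims3 (0.18), and Ankrd34c (0.21).

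Other genes of the same families also had lower means in Phf21bΔ4/Δ4 hippocampi, most of them at low levels. Of 14 such relatives 9 were listed, of which 4 fell past both thresholds in limma's test (0.663% of all listed genes did), 0 rose, and all 9 had a negative log2 fold change, with a median of -2.25. Irx1 was at 0.422, 0.286, and 0.0435 CPM in Phf21bΔ4/Δ4 mice 2, 3, and 6, and at 5.36, 3.97, and 8.23 CPM in Phf21b+/+ mice 5, 7, and 8, with a log2 fold change of -4.95 (SE 0.83, FDR 0.0809). Irx3 (-3.26, SE 0.55, FDR 0.0809), Zic5 (-2.41, SE 0.41, FDR 0.0809), and Zic2 (-2.25, SE 0.41, FDR 0.0959) fell too. Zic2 and Zic5 were highest in Phf21b+/+ mouse 7 and in Phf21bΔ4/Δ4 mouse 6, the same mice as for Zic1 and Zic4. Nhlh1 and Tcf7 did not pass the thresholds although their groups did not overlap, and Rorb, an abundant cortical and thalamic nuclear receptor, was at 44.7 ± 13.2 and 47.3 ± 6.73 CPM (SD, n = 3) in Phf21bΔ4/Δ4 and Phf21b+/+ mice. With voom on reads, 1 of the 9 relatives was called.

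**Figure D3:**
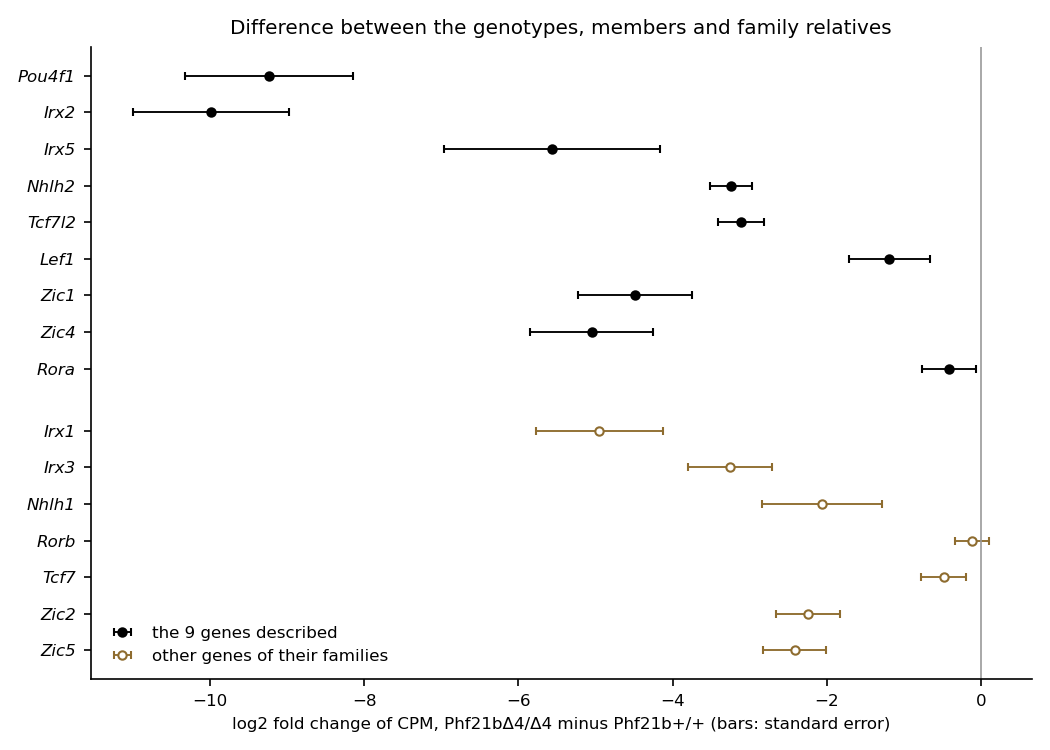
Log2 fold change of CPM, Phf21bΔ4/Δ4 minus Phf21b+/+, with its standard error from limma, for the 9 members (black) and for 7 of the listed relatives from their gene families (open circles). All 16 values are below 0, from -9.99 for Irx2 to -0.12 for Rorb, and those of Pou4f1 and Irx2 depend on the prior count, since their Phf21bΔ4/Δ4 reads are near 0.

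Most genes that carry out the functions of medial habenula neurons fell. All 12 of the list were measured, 8 fell past both thresholds, 0 rose, and the median log2 fold change was -3.76, where 1.22% of all listed genes passed the thresholds in either direction. Their summed level was 145, 142, and 79.3 CPM in Phf21bΔ4/Δ4 mice and 421, 421, and 508 CPM in Phf21b+/+ mice, without overlap. Gpr151 fell from 47.5 ± 4.25 to 1.36 ± 0.454 CPM (SD, n = 3; FDR 0.0023), and Chrna3 from 25.4 ± 6.93 to 0.599 ± 0.185 CPM (FDR 0.0023).

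Chat, which makes acetylcholine, had 1 read in all 3 Phf21bΔ4/Δ4 mice together and 348 reads in the Phf21b+/+ mice, a ratio of 352 with a counting interval of 62.7 to 13924, and its FDR was 0.0503. Slc18a3, the vesicular acetylcholine transporter, had 1 and 186 reads (ratio 188, interval 33.3 to 7460.3; FDR 0.0669). Of the genes not called, Chrna5, a nicotinic subunit, was higher in the Phf21bΔ4/Δ4 mean (8.71 against 4.32 CPM) with overlapping groups, while Tac1, Calb2, and Nwd2 had groups that did not overlap and a lower Phf21bΔ4/Δ4 level. This list was chosen with results of these mice known and is not independent of the members.

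Most thalamic neuron genes had lower means in Phf21bΔ4/Δ4 mice. Of 10 genes, all listed, 1 fell past both thresholds, 0 rose, and 9 had a negative log2 fold change, with a median of -1.37. Over all 14477 listed genes, 0.663% fell past both thresholds and 7593 had a negative log2 fold change. Amotl1, which encodes an angiomotin-like scaffold, fell from 103 ± 30.8 to 35.1 ± 2.48 CPM (SD, n = 3; log2 fold change -1.51, SE 0.23, FDR 0.0688). Prkcd, a protein kinase C, was at 6.71, 8.76, and 63.3 CPM in Phf21bΔ4/Δ4 mice 2, 3, and 6 and at 96.2, 87.9, and 44.9 CPM in Phf21b+/+ mice 5, 7, and 8, so that mouse 6 overlapped. The vesicular glutamate transporter Slc17a6 was at 7.30, 51.2, and 21.4 CPM in the former and at 125, 118, and 74.7 CPM in the latter, with no overlap and an FDR of 0.144. The list summed to 168, 292, and 244 CPM in Phf21bΔ4/Δ4 mice, below the 326 to 642 CPM of Phf21b+/+ mice.

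Of 15 other transcription factors of the habenula and thalamus, 9 were listed, 3 fell, and 0 rose. Shox2, a homeobox factor of thalamic neurons, had 1 read in each Phf21bΔ4/Δ4 mouse and 8.73, 10.1, and 1.12 CPM in Phf21b+/+ mice 5, 7, and 8 (ratio of summed reads 151, counting interval 51.3 to 734; FDR 0.0618). Otx2, which is also a factor of choroid plexus epithelium, fell with an FDR of 0.089 and was at 54.1 CPM in Phf21b+/+ mouse 7, the mouse with the highest choroid plexus sum, and at 6.07 and 11.9 CPM in mice 5 and 8. Zfhx3 fell from 19.4 ± 7.17 to 4.69 ± 1.64 CPM (SD, n = 3; FDR 0.0916). Lhx2, Etv1, and Nr4a2 had higher Phf21bΔ4/Δ4 means and Lhx9, Foxp2, and Isl1 lower ones, none of which passed, and Gbx2, Dbx1, Olig3, Sox14, Gata3, and Barhl2 were not listed. With voom on reads, 0 of these 9 were called, and 6 had an unadjusted p under 0.05 in limma's test. Over these 4 lists of relatives, other factors, effectors, and thalamic genes, 16 of 40 listed genes fell and 0 rose, where 0.663% of all listed genes fell. The 4 lists were chosen with earlier results of these mice known, so nothing is read from their shares. The number of genes of the 4 lists that fell was 6 and 8 without Phf21bΔ4/Δ4 mouse 2 or 3, and 28 without mouse 6 (with 1 that rose). It was 4, 4, and 6 without Phf21b+/+ mouse 5, 7, or 8.

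Genes of the Wnt pathway, through which Tcf7l2 and Lef1 act, passed the test in 1 of 30 cases, where 1.22% of all listed genes passed. In this pathway the receptors LRP5 and LRP6 and the Dishevelled proteins relay the signal, the Axin, APC, and GSK3 complex breaks down β-catenin, and β-catenin joins TCF and LEF factors with the coactivators BCL9 and Pygopus or is replaced by TLE corepressors. Of 20 such components, all listed, 0 passed both thresholds in limma's test, 4 had an unadjusted p under 0.05, 0 were called by voom on reads, and the median log2 fold change was 0.10. Ctnnb1, which encodes β-catenin, was at 776 ± 79.6 CPM in Phf21bΔ4/Δ4 and 762 ± 28.9 CPM in Phf21b+/+ mice (SD, n = 3). The corepressor gene Tle3 came nearest to the threshold, at 45.2, 40.3, and 35.2 CPM in Phf21bΔ4/Δ4 mice and 26.1, 26.5, and 28.2 CPM in Phf21b+/+ mice (FDR 0.102).

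Of 12 genes known as Wnt targets 10 were listed, and 1 fell past both thresholds. Axin2, a feedback inhibitor and the most general target of the pathway, was at 20.7, 23.1, and 20.8 CPM in Phf21bΔ4/Δ4 mice and at 31.8, 32.8, and 33.5 CPM in Phf21b+/+ mice, with no overlap (log2 fold change -0.60, SE 0.08, FDR 0.0618). Ccnd1 had higher values in every Phf21bΔ4/Δ4 mouse, 66.6 ± 12.6 against 42.0 ± 3.93 CPM (SD, n = 3), and did not pass (FDR 0.133). The median of the targets was -0.09, and Sp5 and Dkk1 were not listed. The count of Wnt genes past the thresholds was 0 without each of Phf21bΔ4/Δ4 mouse 2 and Phf21b+/+ mice 5, 7, and 8, and 9 without Phf21bΔ4/Δ4 mouse 6, of which 2 were lower and 7 higher in Phf21bΔ4/Δ4 mice.

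The labeled tissue and other tissues near it were checked by marker lists. Hippocampal principal neuron markers were present in all mice, with sums of 1273 to 2052 CPM in Phf21bΔ4/Δ4 and 1278 to 1510 CPM in Phf21b+/+ hippocampi. Among these 12 genes, Fibcd1, a marker of CA1, rose (log2 fold change 1.51, SE 0.21, FDR 0.0618), and the dentate gyrus markers Prox1 and C1ql2 had lower Phf21bΔ4/Δ4 values without passing (FDR 0.155 and 0.157). Of 9 cerebellar markers, 6 were not listed, including Pcp2 and Gabra6, and the 3 others summed to 17.9 to 44.0 CPM in Phf21bΔ4/Δ4 and 21.6 to 25.8 CPM in Phf21b+/+ mice.

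Choroid plexus genes, 8 of 8 listed, all had a negative log2 fold change, with a median of -4.43 and groups that overlapped for each gene. Of them, 0 passed the thresholds in limma's test, 1 had an unadjusted p under 0.05, and 0 were called by voom. Kcne2 was at 0 reads in Phf21bΔ4/Δ4 mouse 3 and Phf21b+/+ mouse 5. The sums of endothelial markers (166 to 212 and 133 to 278 CPM) and of differentiating oligodendrocyte markers (522 to 656 and 598 to 697 CPM) overlapped between the genotypes. The endothelial overlap came from Slco1c1, at 171 CPM in Phf21b+/+ mouse 7, and without it the 7 other markers summed to 121 to 157 CPM in Phf21bΔ4/Δ4 and 88.3 to 113 CPM in Phf21b+/+ mice, without overlap. Without Bcas1, the 7 other oligodendrocyte markers summed to 411 to 438 CPM in Phf21bΔ4/Δ4 and 350 to 375 CPM in Phf21b+/+ mice, also without overlap. In each case the marker with the highest level was left out, after the values were seen. The same step left overlap in other lists, given as CPM in Phf21bΔ4/Δ4 and then Phf21b+/+ mice. Hippocampal markers without Zbtb20 summed to 1041 to 1639 and 992 to 1143, and cerebellar markers without Cbln1 to 14.4 to 21.6 and 14.4 to 16.9. Choroid plexus genes without Ttr summed to 14.9 to 37.0 and 23.1 to 1221. The cerebellar, meningeal, endothelial, and oligodendrocyte lists had 0 genes called by limma or by voom, and 0, 4, 2, and 3 genes with an unadjusted p under 0.05 in limma's test. The medial habenula sum was lower in every Phf21bΔ4/Δ4 mouse, as were 7 of the members, and how much of either tissue each dissection held was not measured and cannot be told apart from the genotype.

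**Figure D4:**
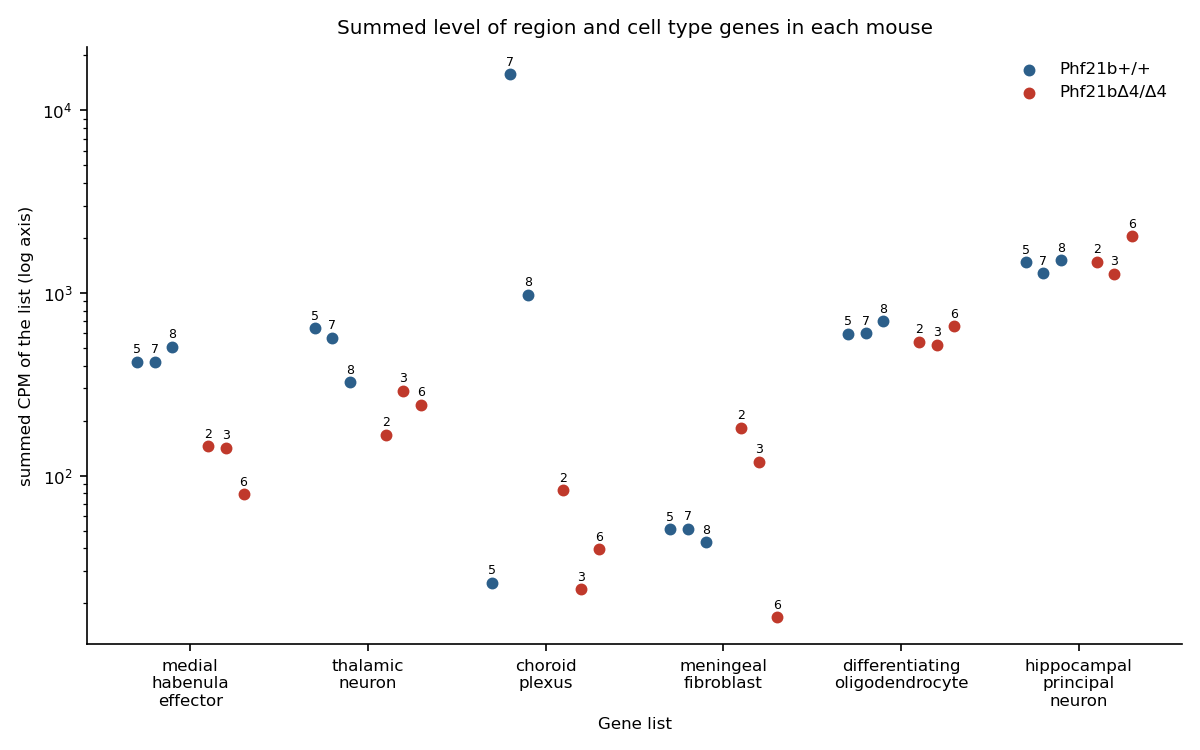
Summed CPM (log axis) of 6 gene lists in each mouse, with Phf21b+/+ mice in blue, Phf21bΔ4/Δ4 mice in red, and the replicate number above each point. Medial habenula and thalamic sums are lower in all 3 Phf21bΔ4/Δ4 mice, the choroid plexus sum reaches 15763 CPM in Phf21b+/+ mouse 7, and oligodendrocyte and hippocampal sums overlap. The oligodendrocyte overlap is lost when Bcas1 is left out, and the hippocampal overlap stays when Zbtb20 is left out.

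Genes beside the members on the chromosome were examined to see whether they differed too. The nearest listed gene on each side gave 16 genes for the 9 members, as Zic1 and Zic4 share both. Of these, 2 fell past both thresholds, where 0.663% of all listed genes did, and 1 of the 2, Irx1, was already counted among the relatives. D130079A08Rik, whose end lies 2.34 kb from Pou4f1, had 0 reads in all 3 Phf21bΔ4/Δ4 mice and 0.949, 1.39, and 1.48 CPM in Phf21b+/+ mice, at least 8.92-fold lower against the CPM of 3 reads per library (FDR 0.0618). Irx1, described above, is the nearest listed gene on 1 side of Irx2, at 665 kb. Crnde, 1.505 kb from Irx5, was at 0.506, 1.33, and 0.391 CPM in Phf21bΔ4/Δ4 mice and at 0.712, 1.48, and 1.80 CPM in Phf21b+/+ mice, with overlap. The other neighbors, such as Rnf219 beside Pou4f1, Vti1a beside Tcf7l2, and Hadh beside Lef1, did not pass, and neither did Plscr1 beyond Zic4 (log2 fold change -1.33, SE 0.29, FDR 0.127).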

How the data were processed

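RNA-Seq of hippocampal tissue from 3 Phf21bΔ4/Δ4 and 3 Phf21b+/+ mice was analyzed. The authors deposited log2 CPM for 14477 genes and made them from total RNA libraries depleted of ribosomal RNA, with Trimmomatic 0.39, STAR 2.7.3a on GRCm38, featureCounts of Subread 1.6.4, and edgeR, after removal of genes that reached a CPM of 1 in fewer than 2 samples. Reads were worked out from the steps of the values (100% of values under 1000 reads were whole within 0.1 reads) and gave depth, CPM, and the floor of 3 reads. PCR duplicates were not removable from these values, so intervals and floors cover counting error only. Genotypes were compared on the deposited values with limma 3.58.1 (lmFit, and eBayes with a mean-variance trend) in R 4.3.3 over all 14477 genes, with Benjamini-Hochberg adjustment and thresholds of 0.1 for the FDR and 1.3 for the fold change. The authors' own test, edgeR's on counts, was not run here, and the reads worked out were tested with voom as an alternative. The fit was checked on simulated data. With 3 against 3 mice an exact permutation test cannot go below p = 0.1, so none is given for single genes. P-values set the genotype difference against the spread between these mice, which limma draws towards the mean-variance trend over all genes.

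The members and gene lists were chosen with earlier results of these data known. Genes named in the text are the members, Phf21b, up to 4 called genes of the largest change in each list with its defining markers, the nearest listed gene on each side of each member, and the 3 genes most alike to it, and further list genes were chosen after their values were seen. Some genes are not reported here by name. Positions are from GENCODE M21 and promoters from RefSeq, both on GRCm38. Alternatives were the prior variance, weights per mouse, log2(CPM + 1), a filter at a mean log2 CPM of 1, centering, voom on reads, an FDR of 0.05, and leaving out each mouse.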

Additional observations from a re-analysis of the deposited data

How the results depend on the processing

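All 9 members kept a negative log2 fold change in 105 of 105 values under the alternatives run. Of these values, 100 differed from that of the main limma fit by less than the gene's spread between mice. The prior variance and the filter cannot change a fold change, so their values do not test its sign. Centering moves every gene by the same amount. As the members were chosen on this contrast, nothing is read from these counts. The main limma fit made here gave 176 differentially expressed genes (96 lower and 80 higher), which is not the authors' own number. The count was 75 with the same prior variance for all genes (62 lower) and 3549 with a weight for each mouse. It was 101 among genes whose mean log2 CPM reached 1 (Pou4f1, Irx2, and Irx5 were left out there) and 25 at an FDR of 0.05 (20 lower). The number of habenular and thalamic list genes, 16 in the main fit, was 10, 30, 6, and 5 under these settings and 9 with voom on reads. The number of Wnt genes, 1 in the main fit, was 7 with a weight for each mouse, 2 after centering on the median, and 0 at an FDR of 0.05. Leaving out each mouse gave 9 to 2830 differentially expressed genes, 1 to 7 members (6 in the main fit), 4 to 29 habenular and thalamic list genes, and 0 to 9 Wnt genes. The cause of these differences was not tested. No paired analysis was possible. The study used littermates of both genotypes, but the litter of each of these mice is not given in the sources used here. Depth limits Pou4f1, Irx2, and Irx5, whose Phf21bΔ4/Δ4 libraries held at most 4 reads.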
